A study of Rattus norvegicus with 52 samples.

Results

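The genes described here encode collagen chains and other proteins of the extracellular matrix, together with growth factors that act on matrix-forming cells: Col4a1, Col4a2, Col1a1, Col1a2, Col3a1, Fn1, Sparc, Ccn2 (older name Ctgf) and Tgfb1. All probe sets of the Affymetrix RAE230A and RAE230B chips that carry one of these 9 symbols, or an older alias of it, were taken. There were 13 such probe sets among 31042 non-control probe sets, all on RAE230A, and all 13 were among the 15473 probe sets bright enough to be tested. Kidney RNA was measured in 26 male rats: ET3x2 congenic rats (4 on 4% NaCl and 4 on 0.4% NaCl), ET3x1 congenic rats (4 and 4) and Dahl SS/Jr rats, called S below (5 and 5). Dahl S rats were bred for a blood pressure that responds to dietary salt. ET3x2 and ET3x1 each carry a segment of the R strain on the S background, so all 3 strains share most of the S genome. The rats were weaned at 30 days onto the 0.4% NaCl diet, and the high-salt rats were moved to 4% NaCl at 39 to 41 days of age for 24 hours. All were killed at 40 to 42 days. The left kidney was decapsulated and its RNA extracted whole, so the values are those of all kidney regions and cell types together, 1 rat per chip pair. In such bulk RNA, fewer cells of a type and less RNA per cell cannot be told apart.

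Type IV collagen forms the network of basement membranes, the sheets under the tubular epithelium and around the glomerular capillaries, while type I and type III collagens form the fibrils of the interstitium. Fibronectin and Sparc bind to these collagens, and Ccn2, a matricellular protein, and Tgfb1, the ligand of the TGF-beta receptors, promote the making of matrix. In kidneys these genes are known for their rise in fibrosis, including that of hypertensive Dahl rats.

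The values are log2 signals, so that a difference of 1 is a doubling. Differences are log2 values ± their standard error from limma. A probe set was called where limma's p, adjusted by the Benjamini-Hochberg method over all 15473 tested probe sets, was below 0.05. Shares of all tested probe sets were computed for such calls only, and not for unadjusted p or for the sign of a difference. Averaged over both diets, 7 of the 13 matrix probe sets, of 5 genes, were lower in ET3x2 than in S and none was higher, where 14% of all tested probe sets were called lower. In ET3x1, 4 of 13 were lower than in S, where 16% of all tested probe sets were called lower, and 1 was higher, where 16.3% were called higher. The median difference of the 13 was -0.25 for ET3x2 and -0.10 for ET3x1, against medians over all tested probe sets of 0.011 and -0.003. Both comparisons use the same 10 S rats. Between the congenic strains themselves 1 of 13 was called, lower in ET3x2, where 5.14% of all tested probe sets were called lower. With high salt, 5 of 13 were higher than on low salt over the 3 strains and none was lower, where 9.61% of all tested probe sets were called higher, and all 13 differences were positive (median 0.19, against -0.001 over all tested probe sets). With the Gapdh 3′ minus 5′ measure of RNA quality as a covariate, described below, the 5 salt calls were lost. With the beta-actin measure only the Col4a2 call of the 5 held, and with the spike-in measure only that of Fn1 was lost. The 7 ET3x2 calls held with each of these measures. The Gapdh measure itself was lower on high than on low salt in both congenic strains (means 0.747 and 0.948 in ET3x2, 0.594 and 0.877 in ET3x1). In S its means were 0.812 and 0.827.

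**Figure D1:**
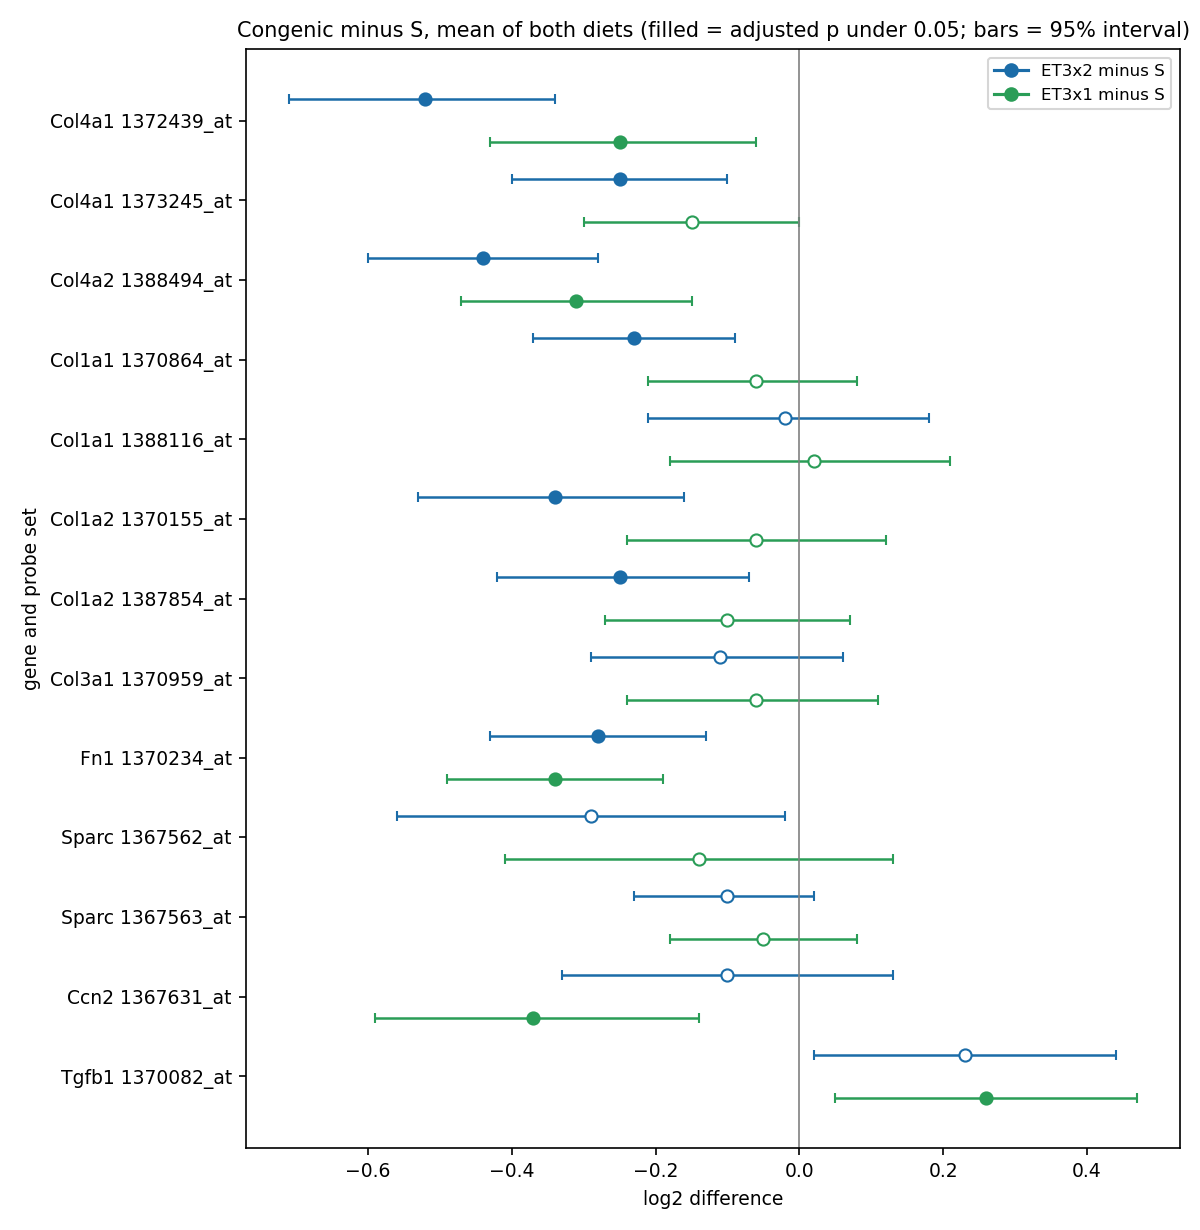
Differences of the 13 matrix probe sets between each congenic strain and S, averaged over both diets, in log2 units with 95% confidence intervals. Filled points are called probe sets. ET3x2 has 7 filled points, all left of 0, and ET3x1 has 4 left of 0 and Tgfb1 to the right.

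Col4a1 1372439_at and Col4a2 had the largest differences of the 13 probe sets between ET3x2 and S. Over both diets both chains were called lower in ET3x2, and Col4a2 and Col4a1 1372439_at were called lower in ET3x1. Within a diet, only Col4a2 on high salt was called in ET3x1. Both chains had their lowest mean in ET3x2 rats on low salt and their highest in S rats on high salt. In the RefSeq annotation of the GRCr8 assembly, Col4a1 (+ strand) and Col4a2 (- strand) lie head to head on chromosome 16 with 76 bases between their annotated starts, a stretch at chr16:84885521-84885596 that is shown because both genes are transcribed away from it. It is written on the + strand, with Col4a2 to the left and Col4a1 to the right, and the capitals mark its 1 GC box (GGGCGG, here on the opposite strand).
Col4a1 and Col4a2: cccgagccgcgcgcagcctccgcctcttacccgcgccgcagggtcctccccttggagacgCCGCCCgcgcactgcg
Of these bases 78.9% are G or C. Of 33469 RefSeq windows of the same length just upstream of a start, 18.1% hold a GC box on either strand. The stretch holds no TATA box (TATAAA), which 4.61% of such windows hold, no CCAAT box, which 13.0% hold, and no TEAD-type motif (letters GGAATG), which 3.66% hold, on either strand.

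Col4a1 encodes the more abundant chain of the usual type IV collagen molecule. Its probe set 1372439_at had signals of 10.38, 10.06, 10.24 and 9.63 in ET3x2 rats on high salt and 9.88, 9.71, 9.80 and 9.67 on low salt. In ET3x1 rats it had 10.42, 10.20, 10.32 and 10.25 on high salt and 10.26, 9.88, 10.01 and 10.22 on low salt. In S rats it had 10.71, 10.61, 10.81, 10.61 and 10.55 on high salt and 9.99, 10.31, 10.52, 9.86 and 10.49 on low salt. All 5 S rats on high salt lay above every congenic rat on high salt, while on low salt the lower S rats overlapped both congenic groups. The strain difference was -0.52 ± 0.09 for ET3x2 (adjusted p = 0.000256), a fall of 30.5% of the S signal, and -0.25 ± 0.09 for ET3x1 (adjusted p = 0.0363). On high salt ET3x2 was lower by -0.58 ± 0.13 and on low salt by -0.47 ± 0.13 (adjusted p = 0.0150 and 0.0122). The second Col4a1 probe set, 1373245_at, gave smaller strain differences, -0.25 ± 0.07 for ET3x2 (adjusted p = 0.0117) and -0.15 ± 0.07 for ET3x1, which was not called (adjusted p = 0.105). On high salt it was lower in ET3x2 by -0.36 ± 0.10 (adjusted p = 0.0454), a call lost in 5 of 11 other settings and on leaving out any 1 of 10 rats (-0.43 to -0.25, adjusted p at most 0.215). On low salt it differed by -0.15 ± 0.10 and was not called (adjusted p = 0.331). The mean of both probe sets on low salt differed by -0.31 ± 0.11 and was not called either (adjusted p = 0.0514). The high-salt difference of 1372439_at lost its call without ET3x2 high-salt rat 4 (-0.43, adjusted p = 0.0862) or rat 2 (-0.57, adjusted p = 0.0571), the numbers serving only as names within a group. The averaged ET3x1 difference lost it on leaving out any 1 of 10 rats (-0.30 to -0.21, adjusted p at most 0.0896, the ranges given for left-out rats covering all 26) and with array medians centred (-0.23, adjusted p = 0.0586). Averaged over both Col4a1 probe sets, ET3x2 was lower than S by -0.39 ± 0.08 (adjusted p = 0.000959). The same mean differed by -0.20 ± 0.08 in ET3x1 and was not called (adjusted p = 0.0504).

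Col4a2, the partner chain, was measured by probe set 1388494_at. It had signals of 11.43, 11.32, 11.43 and 10.84 in ET3x2 rats on high salt and 10.93, 10.98, 11.18 and 11.01 on low salt. ET3x1 rats had 11.42, 11.33, 11.25 and 11.14 on high salt and 11.16, 11.27, 11.30 and 11.25 on low salt. S rats had 11.95, 11.84, 11.83, 11.65 and 11.72 on high salt and 11.34, 11.47, 11.59, 10.98 and 11.41 on low salt. The S rats on high salt stood above all other 21 rats, and the 8 ET3x1 rats lay close together whatever their diet. Col4a2 was lower in ET3x2 by -0.44 ± 0.08 (adjusted p = 0.000282) and in ET3x1 by -0.31 ± 0.08 (adjusted p = 0.00355). On high salt both congenic strains were lower than S, by -0.54 ± 0.11 for ET3x2 (adjusted p = 0.00920) and -0.51 ± 0.11 for ET3x1 (adjusted p = 0.00339). On low salt ET3x2 was lower by -0.34 ± 0.11 (adjusted p = 0.0323), and ET3x1 differed from S by -0.11 ± 0.11, which was not called. Without ET3x2 high-salt rat 4 the high-salt ET3x2 difference was -0.41 (adjusted p = 0.0514), and the low-salt one lost its call on leaving out any 1 of 7 rats (-0.43 to -0.28). Over the 26 rats the 2 Col4a1 probe sets correlated with Col4a2 at Pearson r = 0.89 and 0.81 (Spearman 0.86 and 0.76; permutation p = 1e-05 for both Pearson values, the smallest that 100000 resamples give, and 3.3e-05 after adjustment over the 10 pairs of probe sets compared). Within groups, as deviations from each group's mean, r was 0.73 and 0.65, and 0.47 and 0.34 without the 2 rats farthest from the median of Col4a1. Within groups Col4a1 also correlated with Col3a1 at 0.84 and 0.78 and with Col1a2 1370155_at at 0.80 and 0.79 on its 2 probe sets, given as descriptions.

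**Figure D2:**
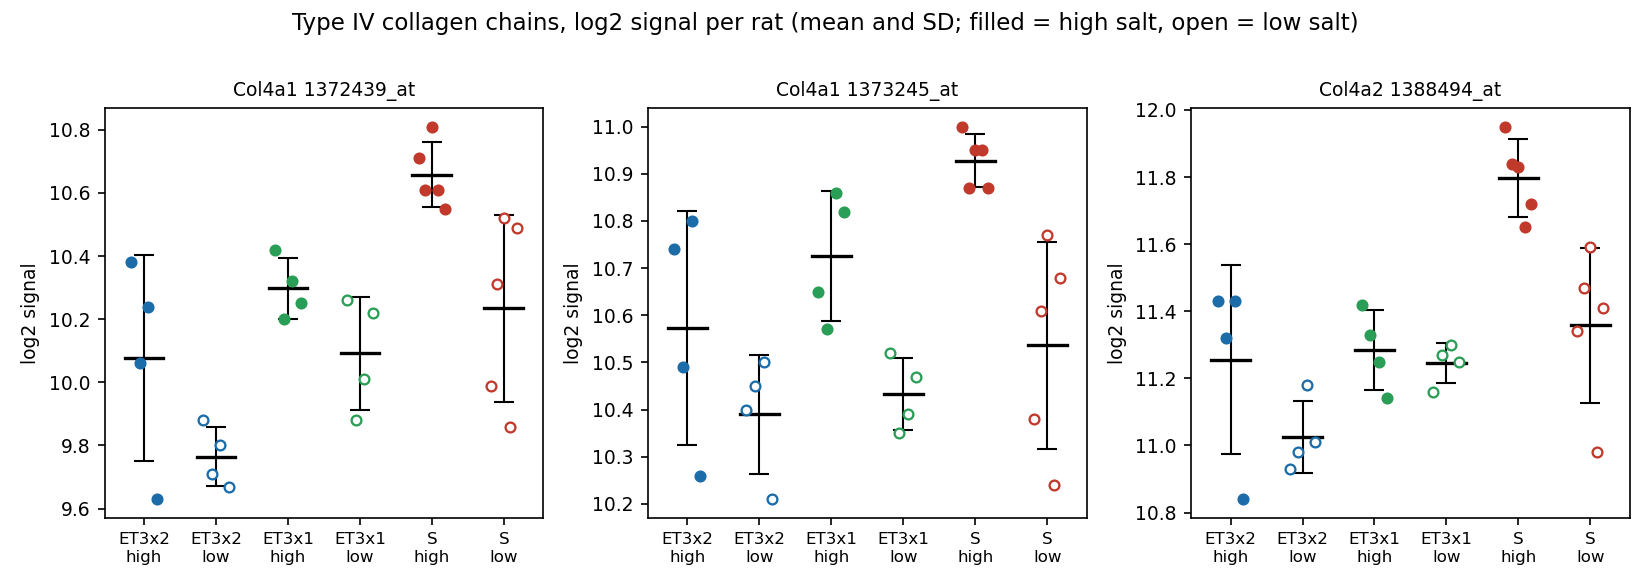
Log2 signal of the 2 Col4a1 probe sets and of Col4a2 in each of the 26 rats, by strain and diet, with group means and SD as bars. For Col4a2 the S rats on high salt lie between 11.65 and 11.95, above every other rat.

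Among the fibrillar collagens, Col1a2 and 1 of the 2 Col1a1 probe sets were lower in ET3x2 than in S, and none of the 5 probe sets was called between ET3x1 and S over both diets. Col1a2 encodes the second chain of type I collagen. Its probe set 1370155_at had signals of 10.0, 9.85, 9.94 and 9.61 in ET3x2 rats on high salt and 9.58, 9.69, 9.61 and 9.61 on low salt. ET3x1 rats had 10.17, 10.27, 10.35 and 10.44 on high salt and 9.71, 9.49, 9.81 and 9.93 on low salt. S rats had 10.28, 10.03, 10.27, 10.02 and 10.02 on high salt and 9.82, 10.08, 10.46, 9.54 and 10.28 on low salt. The 4 ET3x1 rats on high salt stood above the 4 on low salt and above all 8 ET3x2 rats, and the S rats on low salt spread over nearly the whole range. ET3x2 was lower than S by -0.34 ± 0.09 (adjusted p = 0.00627), whereas ET3x1 differed from S by -0.06 ± 0.09 (95% interval -0.24 to 0.12). The direct difference of ET3x2 from ET3x1 was -0.28 ± 0.09 with an adjusted p of 0.049973, which was lost on leaving out any 1 of 19 rats (adjusted p up to 0.110) and in 5 of 11 other settings. On high salt alone that difference was -0.46 ± 0.13 (adjusted p = 0.0311), with no overlap between the strains on this probe set, and it was lost on leaving out any 1 of 4 rats (-0.51 to -0.38, adjusted p at most 0.108). The other Col1a2 probe set, 1387854_at, differed there by -0.07 ± 0.13, with overlap, and was not called (adjusted p = 0.766). The mean of both probe sets differed there by -0.27 ± 0.12 and was not called (adjusted p = 0.145). Against S, 1387854_at was lower in ET3x2 by -0.25 ± 0.08 (adjusted p = 0.0303), a call lost on leaving out any 1 of 6 rats (-0.29 to -0.19, adjusted p at most 0.0947). On low salt alone ET3x2 was lower on both, by -0.41 ± 0.13 and -0.38 ± 0.12 (adjusted p = 0.0241 and 0.0291), and these calls were lost on leaving out any 1 of 4 and of 6 rats (adjusted p at most 0.0739 and 0.0957).

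The 2 probe sets of Col1a1, which encodes the main chain of type I collagen, did not give the same picture. Probe set 1370864_at was lower in ET3x2 by -0.23 ± 0.07 (adjusted p = 0.0147), and its signals in the ET3x2 rats ran from 9.70 to 10.22 (median 9.98), against 9.88 to 10.48 (median 10.22) in S rats. Probe set 1388116_at differed between ET3x2 and S by -0.02 ± 0.09 (95% interval -0.21 to 0.18). The mean of the 2 probe sets differed by -0.12 ± 0.07 and was not called (adjusted p = 0.193). The signals of 1388116_at were 10.66, 10.27, 10.32 and 10.18 in ET3x2 rats on high salt and 10.66, 10.49, 10.33 and 10.15 on low salt. They were 10.42, 10.09, 10.37 and 10.23 in ET3x1 rats on high salt and 10.36, 10.60, 10.69 and 10.58 on low salt. They were 10.63, 10.48, 10.81, 10.65 and 10.57 in S rats on high salt and 9.83, 10.13, 10.63, 9.85 and 10.42 on low salt. On this probe set the ET3x1 rats were mostly lower with salt and the S rats mostly higher. On low salt ET3x1 was above S by 0.39 ± 0.13 (adjusted p = 0.0336), a call lost on leaving out any 1 of 6 rats (0.30 to 0.50) and after quantile normalization (0.28, adjusted p = 0.0596). The 2 probe sets correlated over the rats at r = 0.40 (Spearman 0.40, permutation p = 0.0415, adjusted p = 0.0593), and at r = 0.64 without the 2 rats farthest from the median of 1370864_at. Which part of the transcript each probe set reads was not tested here. Col3a1, the single chain of type III collagen, had signals from 10.69 to 11.15 in ET3x2, from 10.71 to 11.12 in ET3x1 and from 10.53 to 11.51 in S. It was not called in any of the 16 comparisons made. Its differences from S were -0.11 ± 0.08 for ET3x2 (95% interval -0.29 to 0.06) and -0.06 ± 0.08 for ET3x1 (95% interval -0.24 to 0.11).

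**Figure D3:**
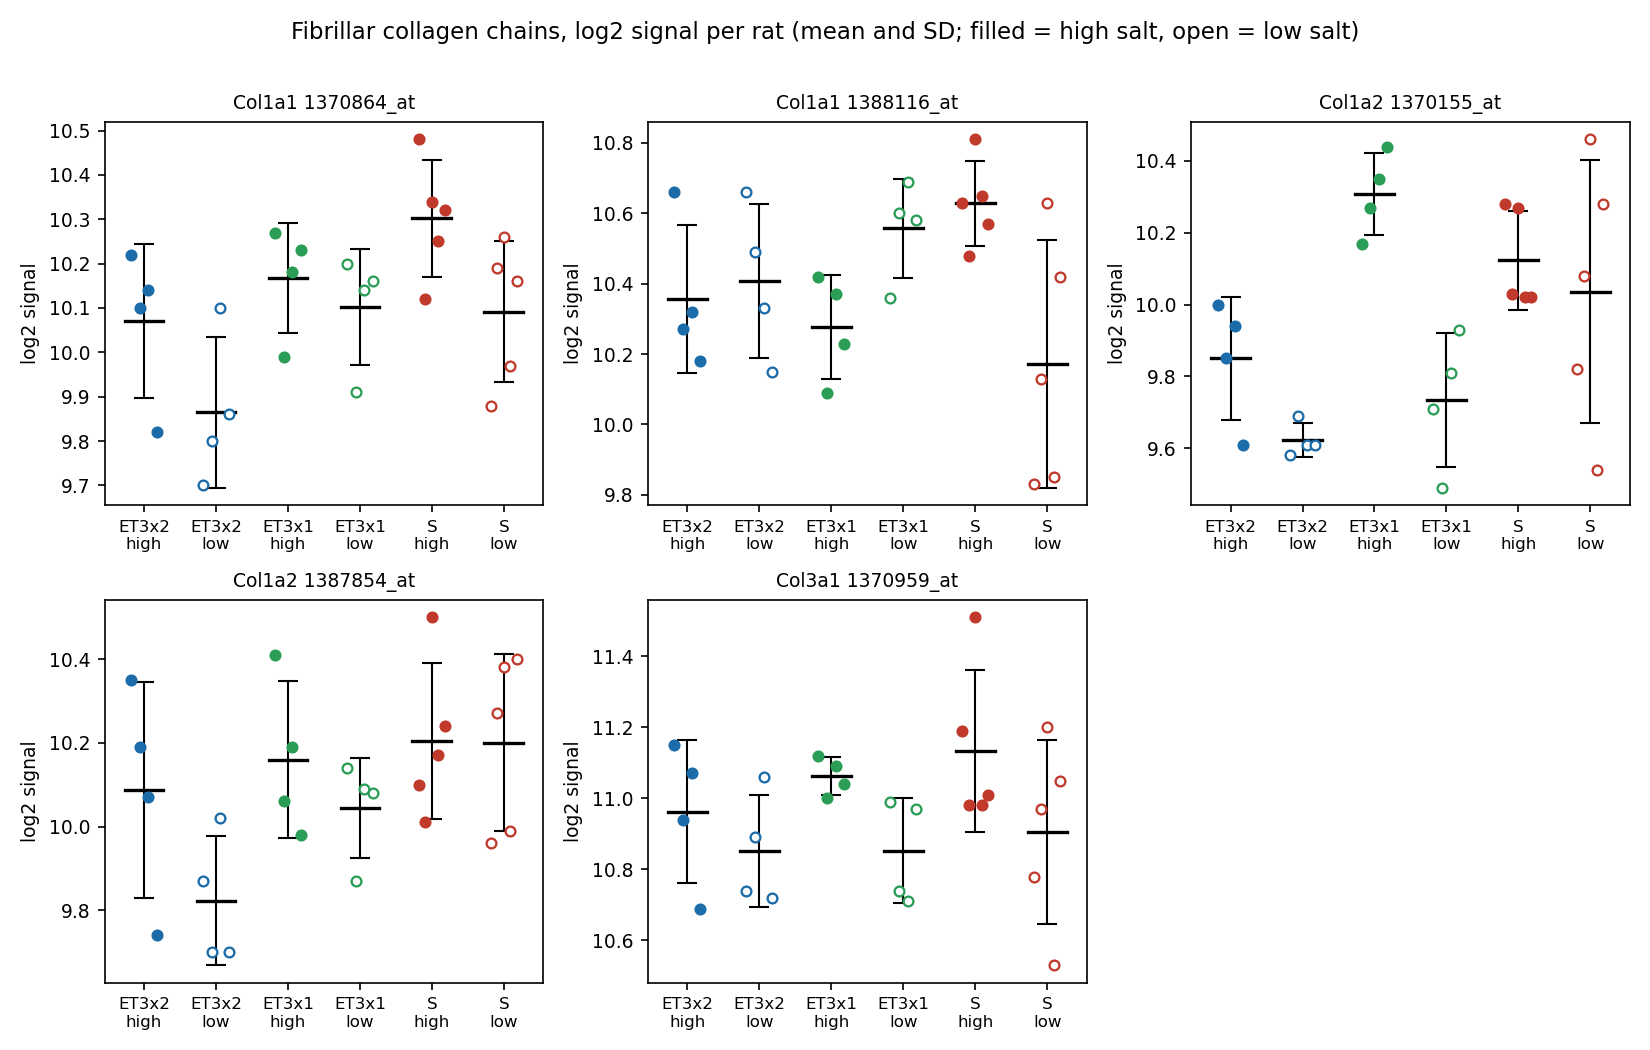
Log2 signal of the Col1a1, Col1a2 and Col3a1 probe sets in each rat by strain and diet, with group means and SD as bars. On Col1a2 1370155_at the 4 ET3x1 rats on high salt (10.17 to 10.44) lie above all 8 ET3x2 rats, and on Col1a1 1388116_at the ET3x1 means are ordered by diet the opposite way to the S means. On Col1a2 1387854_at the ET3x1 and ET3x2 rats on high salt overlap.

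Fn1, which encodes fibronectin, was lower in both congenic strains than in S. Its probe set 1370234_at had signals of 10.58, 10.32, 10.35 and 10.16 in ET3x2 rats on high salt and 10.10, 10.26, 10.32 and 10.12 on low salt. ET3x1 rats had 10.33, 10.22, 10.34 and 10.31 on high salt and 10.24, 9.98, 10.07 and 10.21 on low salt. S rats had 10.74, 10.59, 11.02, 10.49 and 10.56 on high salt and 10.21, 10.37, 10.71, 10.28 and 10.57 on low salt. On high salt every ET3x1 rat lay below every S rat, while the ET3x2 rats overlapped with S through a single rat. Fn1 was lower in ET3x2 by -0.28 ± 0.07 (adjusted p = 0.00691) and in ET3x1 by -0.34 ± 0.07 (adjusted p = 0.00124), and both calls held without each rat in turn. In ET3x1 it was lower on high salt by -0.38 ± 0.10 (adjusted p = 0.0166) and on low salt by -0.31 ± 0.10 (adjusted p = 0.0311). The high-salt call was lost without S high-salt rat 3 (-0.29, adjusted p = 0.0551), the rat with the highest Fn1 signal of all, and the low-salt call on leaving out any 1 of 4 rats (-0.36 to -0.24).

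Sparc encodes a collagen-binding matricellular protein. Neither of its probe sets was called between strains averaged over diets: 1367562_at differed from S by -0.29 ± 0.13 in ET3x2 (adjusted p = 0.102) and -0.14 ± 0.13 in ET3x1, and 1367563_at by -0.10 ± 0.06 and -0.05 ± 0.06. The mean of the 2 probe sets was called lower in ET3x2 (-0.20 ± 0.07, adjusted p = 0.0477). On 1367563_at the 8 ET3x2 rats lay between 10.82 and 10.99 and the 8 ET3x1 rats between 10.83 and 11.11, both within the S range of 10.61 to 11.37. S rats on this probe set had 11.30, 11.08, 11.37, 11.02 and 11.02 on high salt, against 10.67, 10.84, 11.10, 10.61 and 11.06 on low salt. On high salt all 5 S rats exceeded all 8 congenic rats. ET3x1 was lower there by -0.27 ± 0.09 (adjusted p = 0.0414), a call lost on leaving out any 1 of 6 rats and in 5 of 11 other settings, and ET3x2 by -0.24 ± 0.09, which was not called (adjusted p = 0.104). The 2 Sparc probe sets did not rank the rats alike (r = 0.32, Spearman 0.14, permutation p = 0.115, adjusted p = 0.128, and r = 0.03 without the 2 farthest rats), so results for Sparc belong to the probe set named.

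Ccn2 was lower in ET3x1 than in S, and in ET3x2 its difference was not called. Ccn2 encodes connective tissue growth factor, a target of TGF-beta and of the coactivator YAP, which binds DNA through TEAD factors. The 250 bases upstream of its RefSeq start (GRCr8, chr1:22624615-22624864, - strand) are shown, 5′ to 3′, because they hold 3 copies of GGAATG, the core letters that TEAD factors bind. The capitals mark these copies and a TATA box (TATAAA) that ends 25 bases before the start, and 2 GC boxes are left unmarked.
Ccn2: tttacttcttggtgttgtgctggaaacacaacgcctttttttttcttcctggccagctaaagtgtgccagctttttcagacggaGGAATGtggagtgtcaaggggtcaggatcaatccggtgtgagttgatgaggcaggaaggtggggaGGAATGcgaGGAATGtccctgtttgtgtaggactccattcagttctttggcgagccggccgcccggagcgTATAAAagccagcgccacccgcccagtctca
Counted on both strands, 12.1% of 33469 RefSeq windows of this length hold GGAATG at least once and 0.0807% at least 3 times, and 12.9% hold TATAAA. These matches describe the letters and are no test of binding. Of the other members with a promoter entry, Sparc has 1 GGAATG and Col4a1, Col4a2, Col1a2 and Tgfb1 have none in that window.

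The Ccn2 probe set 1367631_at had signals of 9.47, 9.25, 9.38 and 8.97 in ET3x2 rats on high salt and 8.84, 8.71, 8.83 and 9.0 on low salt. ET3x1 rats had 9.0, 8.34, 8.78 and 8.90 on high salt and 8.63, 8.49, 9.06 and 9.11 on low salt. S rats had 9.12, 8.97, 9.61, 9.55 and 9.27 on high salt and 8.77, 8.79, 9.47, 8.94 and 9.10 on low salt. On high salt the ET3x1 rats lay at the bottom, with 1 of them just above the lowest S rat and the lowest ET3x2 rat, whereas on low salt the 3 strains overlapped throughout. ET3x1 was lower than S by -0.37 ± 0.11 (adjusted p = 0.0130), a call kept in all 11 other settings (-0.45 to -0.26) and without each rat (-0.42 to -0.30). On high salt alone the difference was -0.55 ± 0.16 (adjusted p = 0.0203). It was lost with the Gapdh covariate described below (-0.74, adjusted p = 0.0732) and on leaving out any 1 of 3 rats, namely ET3x1 high-salt rat 2 (-0.41, adjusted p = 0.0897), S high-salt rat 3 (-0.47, adjusted p = 0.0589) and S high-salt rat 4 (-0.49, adjusted p = 0.0502). ET3x2 differed from S by -0.10 ± 0.11 (95% interval -0.33 to 0.13). ET3x2 was above ET3x1 on high salt by 0.51 ± 0.16 (adjusted p = 0.0487), a call lost on leaving out any 1 of 14 rats (0.37 to 0.61, adjusted p at most 0.167) and in 6 of 11 other settings.

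Tgfb1 had the dimmest signal of the 9 genes, at percentile 56.3 of the non-control RAE230A probe sets, where the other 12 probe sets lay at percentiles 80.0 to 97.5. It was the only one of the 13 probe sets whose mean was above S in both congenic strains. Its probe set 1370082_at had signals of 7.88, 8.09, 7.84 and 7.93 in ET3x2 rats on high salt and 8.19, 7.93, 7.29 and 7.97 on low salt. ET3x1 rats had 7.83, 7.92, 7.97 and 7.96 on high salt and 7.82, 8.05, 8.05 and 7.78 on low salt. S rats had 7.90, 7.77, 7.32, 8.23 and 7.78 on high salt and 7.31, 7.35, 7.79, 7.46 and 7.69 on low salt. Except for 1 ET3x2 rat at 7.29, the congenic rats lay in a narrow band at the upper end of the S range. Tgfb1 was above S by 0.26 ± 0.10 in ET3x1 (adjusted p = 0.0488) and by 0.23 ± 0.10 in ET3x2, which was not called (adjusted p = 0.0930). The ET3x1 call was lost on leaving out any 1 of 20 of the 26 rats (0.20 to 0.32, adjusted p at most 0.101) and with the Gapdh or the beta-actin covariate (0.23 and 0.21, adjusted p = 0.155 and 0.123). On low salt ET3x1 was above S by 0.41 ± 0.14 (adjusted p = 0.0376), lost on leaving out any 1 of 5 rats (0.36 to 0.48). Tgfb1 and Col4a2 correlated over the rats at r = -0.17 (Spearman -0.30, permutation p = 0.404, adjusted p = 0.404, and -0.27 without the 2 farthest rats).

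**Figure D4:**
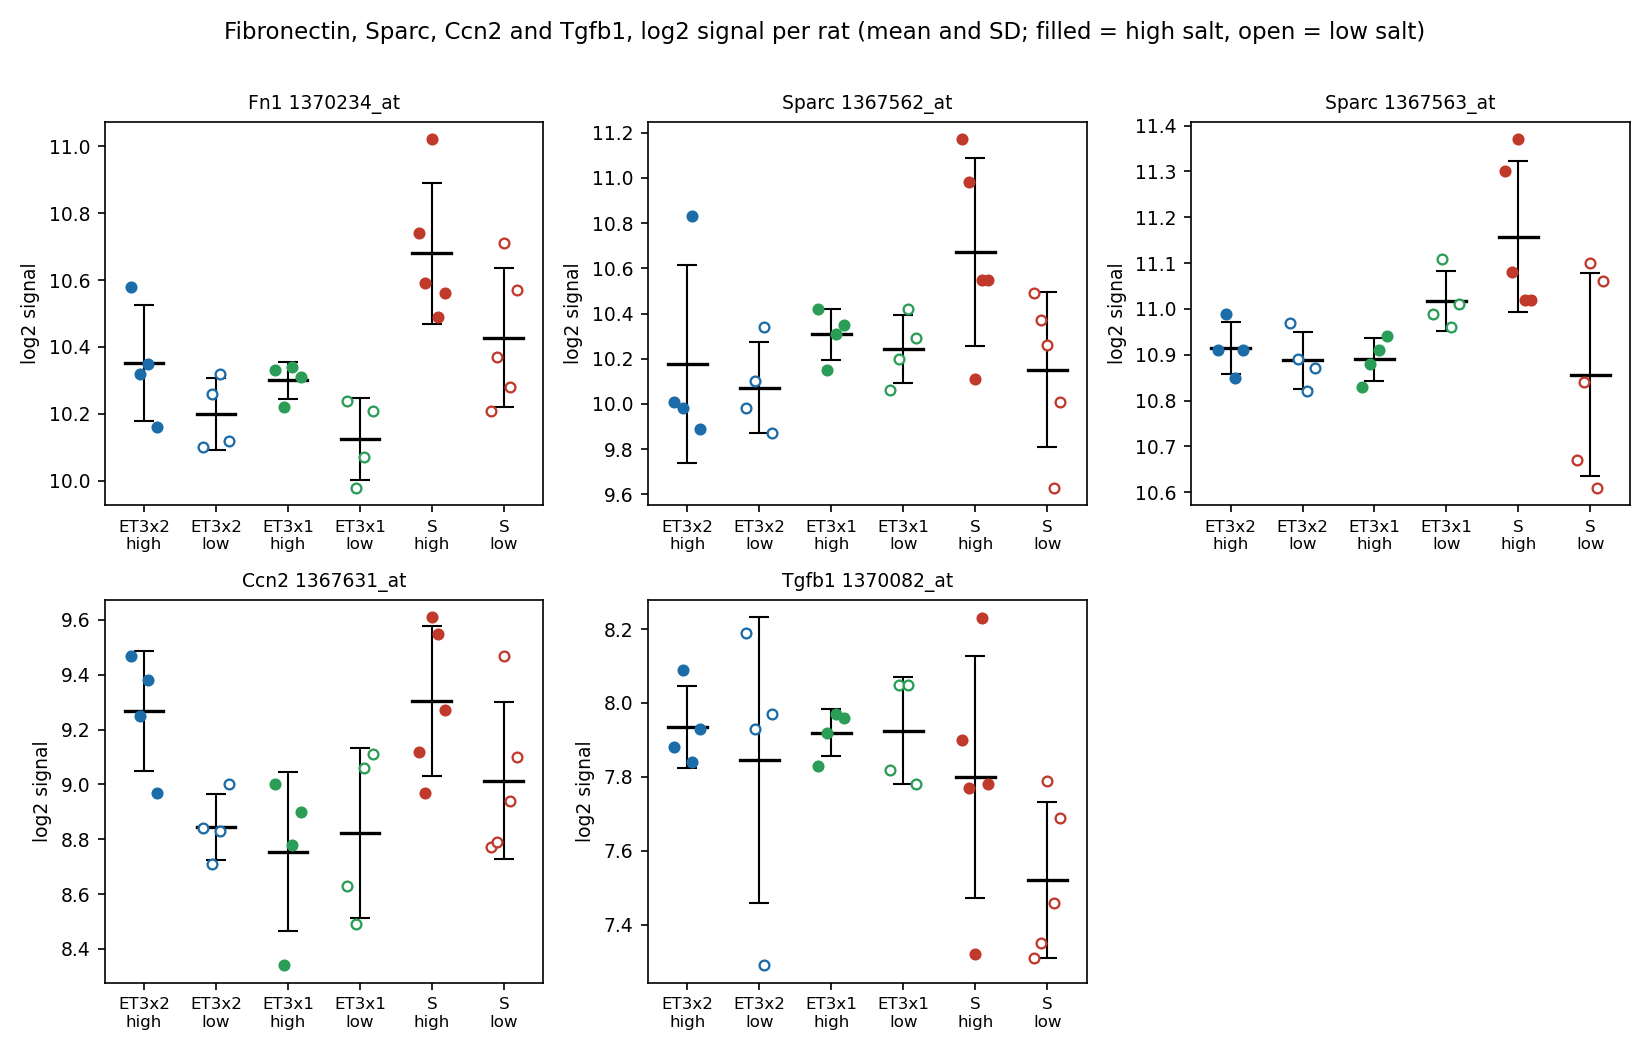
Log2 signal of the Fn1, Sparc, Ccn2 and Tgfb1 probe sets in each rat by strain and diet, with group means and SD as bars. The ET3x1 rats on high salt lie below all S rats on high salt for Fn1, and 1 ET3x2 rat on high salt stands apart at 10.83 on Sparc 1367562_at.

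The strains were also compared within each diet. On low salt 4 of 13 probe sets were lower in ET3x2 than in S, namely Col4a1 1372439_at, Col4a2 and both Col1a2 probe sets, where 8.71% of all tested probe sets were called lower. On high salt 3 of 13 were lower, the type IV collagen probe sets, where 2.97% were called lower. For ET3x1 against S on low salt 1 of 13 was lower (Fn1), where 10.1% were called lower, and 2 were higher (Col1a1 1388116_at and Tgfb1), where 16.7% were called higher. On high salt 4 of 13 were lower (Col4a2, Fn1, Ccn2 and Sparc 1367563_at), where 9.63% were called lower. Between ET3x2 and ET3x1, limma called 0 of 13 on low salt, where 2.73% of all tested probe sets were called, and 2 of 13 had an unadjusted p below 0.05. On high salt 1 was lower in ET3x2 (Col1a2 1370155_at), where 3.74% were called lower, and 1 higher (Ccn2), where 5.49% were called higher.

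After 24 hours of high salt, the type IV collagen genes, 1 of the 2 Col1a2 probe sets and Fn1 were higher over the 3 strains than on low salt. Col4a1 was higher by 0.32 ± 0.08 and 0.29 ± 0.06 on its 2 probe sets (adjusted p = 0.00525 and 0.00155), Col4a2 by 0.24 ± 0.06 (adjusted p = 0.0133), Col1a2 1370155_at by 0.30 ± 0.07 (adjusted p = 0.00763) and Fn1 by 0.19 ± 0.06 (adjusted p = 0.0330). The other Col1a2 probe set, 1387854_at, differed by 0.13 ± 0.07 and was not called (adjusted p = 0.243), and in S alone the Col1a2 differences were 0.09 and 0.00. Leaving out each rat kept the 5 calls, save that of Fn1, which was lost for 7 rats (0.17 to 0.22, adjusted p at most 0.0726). In S alone 4 of 13 were called higher, where 2.11% of all tested probe sets were called higher: Col4a2 (0.44 ± 0.10, adjusted p = 0.0196), Col4a1 1373245_at (0.39 ± 0.10, adjusted p = 0.0262), Col1a1 1388116_at (0.46 ± 0.13, adjusted p = 0.0464) and Sparc 1367563_at (0.30 ± 0.08, adjusted p = 0.0444). All 13 were positive in S, with a median of 0.29 against 0.027 over all tested probe sets. None of these 4 calls held without S high-salt rat 1, S high-salt rat 2 or S low-salt rat 4 (for Col4a2 0.40, 0.42 and 0.34, adjusted p = 0.0649, 0.0600 and 0.0859), or when only S rats were fitted (for Col4a2 0.44, adjusted p = 0.0887). In ET3x1 only Col1a2 1370155_at was called, higher by 0.57 ± 0.13 (adjusted p = 0.00427), where 6.98% of all tested probe sets were called higher, and this held without each rat. The call was lost with the Gapdh or the beta-actin covariate. Probe set 1387854_at differed in ET3x1 by 0.11 ± 0.13 and was not called (adjusted p = 0.581). The mean of both Col1a2 probe sets was called there (0.34 ± 0.12, adjusted p = 0.0451). In ET3x2 limma called 0 of 13, where 0.304% of all tested probe sets were called. There, 12 of the 13 differences were positive, with a median of 0.18 against 0.017 over all tested probe sets. An unadjusted p below 0.05 was found for 3 of the 13, among them Ccn2 (0.42 ± 0.16, adjusted p = 0.295). The shares of all tested probe sets for these counts were not computed. With arrays weighted by their quality in the fit, 5 of 13 were called higher in ET3x2, 2 higher and 1 lower in ET3x1, and 7 higher in S. The shares of all tested probe sets given above belong to the fit without weights, and those with weights are not given here.

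**Figure D5:**
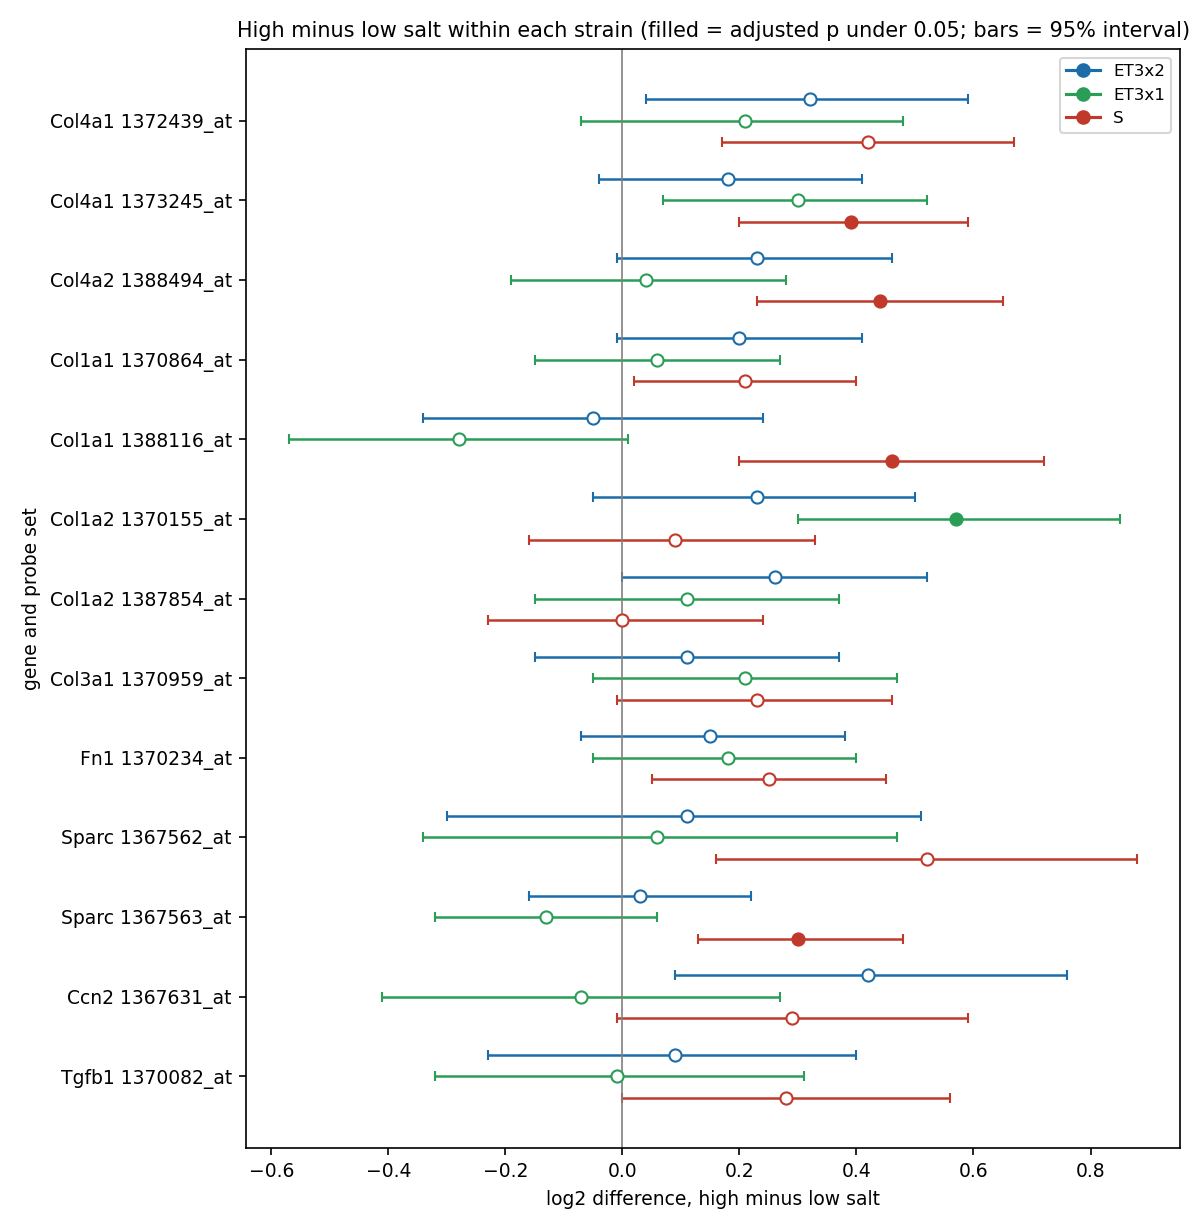
High-salt minus low-salt difference of each matrix probe set within each strain, in log2 units with 95% confidence intervals. Filled points are called probe sets, none in ET3x2, 1 in ET3x1 and 4 in S, and Col1a1 1388116_at is negative in both congenic strains and positive in S. With array weights 5, 3 and 7 were called, for which the share of all tested probe sets is not given.

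The difference between the salt responses of 2 strains was tested directly. Col1a1 1388116_at had a salt difference of -0.28 in ET3x1 and 0.46 in S, a difference between strains of -0.74 ± 0.19 (adjusted p = 0.0241). Sparc 1367563_at had -0.13 in ET3x1 and 0.30 in S, a difference of -0.43 ± 0.12 (adjusted p = 0.0412). These were 2 of the 13, where 4.08% of all tested probe sets were called lower. The Col1a1 call was lost without ET3x1 high-salt rat 2, ET3x1 low-salt rat 2 or ET3x1 low-salt rat 3 (-0.68, -0.72 and -0.69, adjusted p = 0.0528, 0.0558 and 0.0644), and the Sparc call on leaving out any 1 of 13 rats (-0.49 to -0.37). Col4a2 had a salt difference of 0.04 in ET3x1 and 0.44 in S, and the difference of -0.40 ± 0.15 was not called (adjusted p = 0.122). The other probe sets of Col1a1 and Sparc differed by -0.15 ± 0.14 and -0.45 ± 0.26 and were not called. Between ET3x2 and S limma called 0 of 13, where 0.0194% of all tested probe sets were called and 2 of 13 had an unadjusted p below 0.05, and between ET3x2 and ET3x1 0 of 13, where 0.304% were called and 1 had an unadjusted p below 0.05.

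The Gapdh and beta-actin measures of RNA quality differed between groups, as did a difference between spike-in controls (bioD minus bioC), which is no measure of the rats' RNA. None of the 21 differences tested passed adjustment. The Gapdh control probe sets gave a 3′ minus 5′ difference (log2) of 0.747 ± 0.107 in ET3x2 rats on high salt and 0.948 ± 0.0665 on low salt (SD, n = 4 each), 0.594 ± 0.0265 and 0.877 ± 0.0994 in ET3x1 rats (SD, n = 4 each), and 0.812 ± 0.0526 and 0.827 ± 0.0723 in S rats (SD, n = 5 each). The ET3x1 rats on high salt lay below the S rats on high salt without overlap (exact permutation test, two-sided, p = 0.00794, adjusted p = 0.0833 over the 21 tests). Between diets the adjusted p of this measure was 0.120 in ET3x2, 0.120 in ET3x1 and 0.706 in S (exact permutation test). In ET3x1 the diets did not overlap on it (0.556 to 0.612 on high salt, 0.768 to 0.986 on low salt). Nor did they on the beta-actin 3′ minus 5′ difference (0.522 to 0.729, 0.884 to 1.41) or the spike-in difference (2.95 to 3.29, 2.3 to 2.75). Each had an exact permutation p of 0.0286, the smallest that 4 against 4 rats can give. Such a test could hardly pass adjustment over 21 tests. With the Gapdh measure as a covariate limma called 0 of 13 matrix probe sets for salt over the 3 strains, 2 having an unadjusted p below 0.05, and 25 of all tested probe sets in place of 2239. Col4a1 1372439_at then differed by 0.16 (adjusted p = 0.693), Col4a2 by 0.28 (adjusted p = 0.321) and Col1a2 1370155_at in ET3x1 by 0.48 (adjusted p = 0.345), and both differences between the salt responses of ET3x1 and S lost their call (-0.73 for Col1a1, adjusted p = 0.238, and -0.34 for Sparc, adjusted p = 0.364). In S 3 of the 4 salt calls held with it, Col1a1 1388116_at being lost (0.46, adjusted p = 0.0545), while with a covariate from the spike-in controls limma called 0 of 13 in S, 10 having an unadjusted p below 0.05. On the spike-in difference S high-salt rats 1 and 2 stood apart at 1.654 and 1.551, where the rest of their group had 2.827, 2.875 and 2.94. Both rats enter every comparison that uses S rats on high salt. Within a diet, the Gapdh covariate left none of the 4 calls of ET3x2 against S on low salt (Col4a2 -0.37, adjusted p = 0.0611), none of the 4 of ET3x1 against S on high salt (Col4a2 -0.46, adjusted p = 0.120, and Fn1 -0.44, adjusted p = 0.110), all 3 of ET3x2 against S on high salt and all 3 of ET3x1 against S on low salt. The 7 calls of ET3x2 against S averaged over diets held with this covariate, with a 3′ to 5′ measure of beta-actin and with the spike-in covariate, as did the ET3x1 calls of Ccn2, Fn1, Col4a1 1372439_at and Col4a2.

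Other genes of the matrix were read from lists by the brightest probe set of each gene. In ET3x2 against S, 13% of the 8825 tested genes were called lower and 17.8% higher. Of 16 tested partners in basement membranes 7 fell and none rose (median -0.16, against 0.028 over all genes), led by the laminin chain genes Lamc1 (-0.38 ± 0.07, adjusted p = 0.000445) and Lama5 (-0.33 ± 0.06, adjusted p = 0.000447) and by Nid1 (-0.34 ± 0.08, adjusted p = 0.00468), which encodes the laminin-binding nidogen. Of 15 tested genes of the interstitial matrix 6 fell and none rose (median -0.17), with the largest falls for Col12a1 (-0.54 ± 0.08), Col6a3 (-0.51 ± 0.09) and the fibrillin gene Fbn1 (-0.27 ± 0.07). Of 13 genes of collagen processing 1 fell, the crosslinking enzyme gene Loxl2 (-0.25 ± 0.06). In the TGF-beta pathway 2 of 16 rose and 5 fell, led by Tgfbi (0.26 ± 0.08), a matrix protein induced by TGF-beta, Skil (-0.25 ± 0.06), a repressor of Smad signalling, and the co-receptor gene Tgfbr3 (-0.23 ± 0.07).

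Among 14 genes of matrix turnover 4 rose and 4 fell, led by the membrane metalloproteinase gene Mmp14 (0.52 ± 0.12), the metalloproteinase inhibitor gene Reck (-0.44 ± 0.06) and Adamts1 (-0.43 ± 0.13). Of 6 tested matricellular genes and YAP targets 1 fell, the osteopontin gene Spp1 (-0.60 ± 0.09). Of 15 matrix receptor genes 5 fell and none rose, with the largest falls for syndecan gene Sdc2 (-0.35 ± 0.08) and the integrin genes Itga8 (-0.28 ± 0.05) and Itgav (-0.28 ± 0.06).

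In ET3x1 against S, where 13.4% of genes were called lower and 18.8% higher, 7 of the 16 basement membrane partners again fell and none rose (median -0.17), led by Lamb2 (-0.46 ± 0.08), Lamc1 (-0.44 ± 0.07) and the agrin gene Agrn (-0.34 ± 0.07). In the interstitial matrix 3 fell and 1 rose, with Col6a3 (-0.42 ± 0.09) and Col12a1 (-0.35 ± 0.08) lower and Mfap4, of a microfibril-associated protein, higher (0.30 ± 0.08). Of the matricellular genes and YAP targets, the list that Ccn2 belongs to by function, 4 of 6 fell, led by Spp1 (-0.64 ± 0.09), the thrombospondin gene Thbs2 (-0.26 ± 0.06) and Sparcl1, a relative of Sparc (-0.16 ± 0.06). The other gene called there, named after its value was seen, was the YAP target Amotl2 (-0.16 ± 0.06, adjusted p = 0.0466). On high salt alone Amotl2 was higher in ET3x2 than in ET3x1 (0.42 ± 0.09, adjusted p = 0.00661). It was the 1 called gene of 6 on this list, where 4.17% of genes were called higher and 2.27% lower. Of the other matrix lists, Mmp14 (0.75 ± 0.17), Lamb2 (0.44 ± 0.12), Tgfbi (0.41 ± 0.11) and Timp4 (0.28 ± 0.09) were also higher there. Itgb1 (-0.44 ± 0.13), Itgav (-0.39 ± 0.08), Itgb3 (-0.38 ± 0.12) and Plau (-0.34 ± 0.09) were lower. For ET3x1 against S, 2 of 16 genes of the TGF-beta pathway rose and 3 fell, led by the ubiquitin ligase gene Smurf2 (-0.30 ± 0.06), Bmp7 (0.27 ± 0.06) and the receptor gene Tgfbr1 (-0.26 ± 0.05). In collagen processing 2 of 13 rose, the collagen-folding gene Ppib (0.33 ± 0.08) and Pcolce (0.17 ± 0.06), and Loxl2 fell (-0.17 ± 0.06). In matrix turnover Timp2 rose (0.24 ± 0.07) and Reck (-0.31 ± 0.06) and Plat (-0.21 ± 0.06) fell, of 14, and among 15 matrix receptors Itga8 (-0.38 ± 0.05), Dag1 (-0.25 ± 0.06) and Itga3 (-0.12 ± 0.04) fell.

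With high salt over the 3 strains, where 5.22% of genes were called lower and 8.6% higher, each of the 7 lists had at least 1 called gene. Col18a1 was the only basement membrane partner of 16 to rise (0.33 ± 0.06), while in the interstitial matrix 3 of 15 rose, decorin gene Dcn (0.37 ± 0.07), Col6a3 (0.22 ± 0.07) and Col12a1 (0.21 ± 0.07), and Fbln2, named after its value was seen, fell (-0.11 ± 0.04). Spp1 rose by 0.65 ± 0.07 (adjusted p = 2.59e-06), as 1 of 6 matricellular genes, and in collagen processing Loxl2 (0.25 ± 0.05) and Pcolce (0.15 ± 0.05) rose. In matrix turnover Plau (0.28 ± 0.05), Timp1 (0.22 ± 0.05) and Reck (0.16 ± 0.05) rose, in the TGF-beta pathway Smad2 (0.13 ± 0.04), and among the receptors 3 of 15 rose, with Sdc2 (0.35 ± 0.07) and Itgav (0.26 ± 0.05) highest, and Itgb6 fell (-0.44 ± 0.10). In S alone, where 0.499% of genes were called lower and 2.28% higher, 3 of 16 basement membrane partners rose, Col18a1 (0.54 ± 0.09), Agrn (0.43 ± 0.09) and the perlecan gene Hspg2 (0.27 ± 0.07). There, 4 of 13 collagen processing genes rose, among them the collagen chaperone gene Serpinh1 (0.42 ± 0.10), P4hb (0.37 ± 0.09), a subunit of prolyl 4-hydroxylase, and Loxl2 (0.31 ± 0.09). In matrix turnover Mmp14 (0.92 ± 0.16) and Timp1 (0.47 ± 0.08) rose in S. Also higher in S with salt were Mgp (0.32 ± 0.08), Ltbp4 (0.52 ± 0.11), Spp1 (0.73 ± 0.12) and Sdc1 (0.32 ± 0.07), each the only called gene of its list.

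In ET3x1 3 of the 7 matrix lists had genes called in both directions with salt, where 9.38% of genes were called lower and 4.94% higher, and the other 4 had only higher ones. Of the basement membrane partners Lamb2 (-0.53 ± 0.12) and Lama5 (-0.34 ± 0.09) fell and Col18a1 rose (0.31 ± 0.10). In collagen processing P4ha1 (-0.45 ± 0.12) and P4ha2 (-0.23 ± 0.07), catalytic subunits of prolyl 4-hydroxylase, fell and Loxl2 rose (0.42 ± 0.10). In matrix turnover 4 of 14 fell and 1 rose, with Mmp14 (-0.79 ± 0.17) and Mmp15 (-0.37 ± 0.11) lower and Plau, which encodes urokinase, higher (0.48 ± 0.09). Higher with salt in ET3x1 were also Spp1 (0.78 ± 0.13), Dcn (0.51 ± 0.13), Smad2 (0.24 ± 0.08) and the receptor genes Itgav (0.54 ± 0.08) and Sdc2 (0.36 ± 0.12). The salt response itself differed between ET3x1 and S for 4 of 16 basement membrane partners, all in the direction of Col1a1 1388116_at and Sparc, where 4.92% of genes were called lower and 0.884% higher. They were led by Lamb2 (-0.66 ± 0.16), Agrn (-0.58 ± 0.14) and Hspg2 (-0.43 ± 0.11). For Mmp14 the difference was -1.70 ± 0.23 (adjusted p = 0.000106), the only one called of 14 turnover genes, and in collagen processing P4ha1 (-0.67 ± 0.17) and P4hb (-0.52 ± 0.14) were called lower. Emilin1 (-0.66 ± 0.19) of the interstitial matrix and Ltbp4 (-0.63 ± 0.17) of the TGF-beta pathway were also lower. Of the matrix receptors Itgb5 was lower (-0.43 ± 0.13) and Itgav, in the opposite direction, higher (0.46 ± 0.11). The ET3x1 rats on high salt had the lowest Gapdh 3′ minus 5′ values, from 0.556 to 0.612, and with that covariate 27 of all tested probe sets were called for this difference.

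Markers of kidney cell types were also called between strains, where 13% of all genes were lower and 17.8% higher in ET3x2. Of tested markers called in ET3x2 against S, 3 of 4 podocyte, 3 of 7 endothelial, 2 of 6 smooth muscle, 1 of 4 fibroblast and pericyte, and 2 of 6 proximal tubule genes were lower and none of these lists had one higher, while 6 of 9 leukocyte genes were higher and none lower. In the distal nephron 1 of 7 was higher and 2 lower. In ET3x1 against S, where 13.4% of all genes were lower and 18.8% higher, 3 podocyte markers were lower and 1 higher, 3 endothelial and 1 fibroblast and pericyte marker lower and none higher, 2 smooth muscle and 2 proximal tubule markers lower and 2 of each higher, 6 leukocyte markers higher and none lower, and no distal nephron marker was called. The mean log2 level of the 7 endothelial markers ranged over the rats from 8.53 to 8.64 in ET3x2 on high salt and 8.55 to 8.67 on low salt, from 8.44 to 8.62 and 8.59 to 8.77 in ET3x1, and from 8.70 to 8.94 and 8.63 to 8.90 in S. That of the 4 fibroblast and pericyte markers ranged from 9.03 to 9.27 and 8.96 to 9.16 in ET3x2, from 9.15 to 9.25 and 8.98 to 9.25 in ET3x1, and from 9.19 to 9.48 and 8.99 to 9.32 in S. Decorin is on both this list and that of the interstitial matrix. With salt over the 3 strains, 5.22% of all genes were called lower and 8.6% higher. There, 2 of 6 smooth muscle markers rose, Tagln (0.52 ± 0.10) and Acta2 (0.42 ± 0.06). Decorin, 1 of 4 fibroblast and pericyte markers, also rose, as did 1 of 9 leukocyte genes, Coro1a (0.25 ± 0.07). In the distal nephron 1 of 7 rose, Calb1 (0.20 ± 0.05). Of the podocyte genes 2 of 4 fell, Synpo (-0.17 ± 0.05) and Podxl (-0.16 ± 0.05). Of the endothelial genes 2 of 7 fell, Tek (-0.19 ± 0.05) and Pecam1 (-0.16 ± 0.05). No proximal tubule marker was called. The part of these cell types in the differences of the matrix genes was not tested. The fibroblast markers Lum, Thy1, Cspg4, Rgs5 and Fap, the podocyte markers Nphs1 and Wt1 and the endothelial markers Flt1 and Vwf were named on the chips but too dim to be tested. Of the 4 genes of perirenal fat only 1 was bright enough to be tested and it was not called, and none of the adrenal cortex genes was.

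Over the 26 rats, which share strain and diet groups and array normalization, the tested genes most like each member in Pearson correlation were the following. Fn1 was followed by Cd164 (0.93), the dystroglycan gene Dag1 (0.92) and Lamc1 (0.90). Col4a2 was followed by Hp1bp3 (0.91), Col4a1 (0.89) and Sbds (0.88), and the brighter Col4a1 probe set by Papss1 (0.88), Srsf6 (0.88) and the follistatin-like gene Fstl1 (0.87). For genes with 2 probe sets only the brighter one was used. Col3a1 was followed by Cp (0.85), Dcn (0.84) and Papss1 (0.83), Col1a2 1387854_at by Bzw1 (0.84), Tmx1 (0.83) and Nedd4 (0.82), and Col1a1 1388116_at by Strap, Oaz2 and LOC100911177 (0.85 each). Sparc 1367563_at was followed by Ltbp4 (0.85), of a protein that binds latent TGF-beta, Rragc (0.82) and C10h5orf15 (0.80). For Ccn2 the closest were lower, Eif5b (0.74), Cdk8 (0.71) and Atl2 (0.70). Tgfb1 was followed by Akt1s1 (0.90), Pfkl (0.88) and Mif (0.87). Among the members, Col1a2 1387854_at and Col3a1 correlated at r = 0.73 (Spearman 0.70, permutation p = 3e-05, adjusted p = 7.5e-05), at 0.77 within groups and at 0.70 without the 2 farthest rats. Ccn2 and Col4a2 correlated at 0.50 (Spearman 0.55, permutation p = 0.0089, adjusted p = 0.0149, and 0.48 without the 2 farthest rats), and at 0.27 within groups (permutation p = 0.221).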

How the data were processed

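Per the labels, total RNA of the left kidney of each of 26 rats was hybridised as biotin-labelled cRNA to an RAE230A and an RAE230B chip. The deposited log2 signal values were made and normalized by the authors, and how is not given in the sources used here. Array medians on RAE230A lay between 7.47 and 7.52. No 2 arrays held identical values. Each rat counts once, litters and batches are not labelled, and the number of arrays limits the precision. Rat numbers are only names and pair nothing.

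Each chip was fitted with limma 3.58.1 in R 4.3.3, with 6 groups as coefficients, an intensity trend and 20 residual degrees of freedom. Controls were dropped, as were dim probe sets, whose mean over the arrays fell under the median of the chip (7.51 for RAE230A and 6.38 for RAE230B), leaving 7933 and 7540. The 16 comparisons were two-sided, adjusted over both chips. The fit was tested on simulated data. Correlations used 100000 permutations, within groups too, and quality measures the exact permutation test.

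The members and the 7 pathway and 9 cell type lists were chosen with earlier results of these data known. Named from each pathway list are the called genes with the largest absolute change, at most 3, and for each member the 3 most correlated genes. Symbols came from the platform annotation, updated through RefSeq. RefSeq promoter windows (GRCr8) were found for 6 of the 9 genes, and 4 motifs were searched. Col1a1, Col3a1 and Fn1 had no entry.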

Additional observations from a re-analysis of the deposited data

Results flagged for a closer look

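On Sparc 1367562_at, ET3x2 high-salt rat 3 stood apart from its group at 10.83, where the other 3 rats lay between 9.89 and 10.01. Its gap to the nearest rat was 0.864 of the group's range. It was the only such value among 78 groups of rats checked, where about 1 in 20 groups would be expected by chance. On the other Sparc probe set, 1367563_at, the same rat had 10.85, within 10.85 to 10.99 for its group.

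The salt response of ET3x1 differed from that of S on 2 probe sets. For Col1a1 1388116_at the difference was -0.74 ± 0.19 (limma adjusted p = 0.0241), with -0.28 in ET3x1 and 0.46 in S. For Sparc 1367563_at it was -0.43 ± 0.12 (adjusted p = 0.0412), with -0.13 in ET3x1 and 0.30 in S. Both lost their call with the Gapdh or the spike-in covariate, and the second probe set of each gene was not called.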

How the results depend on the processing

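Every result was recomputed with 11 other settings and without each of the 26 rats. Of 41 called results on single probe sets none changed direction, 12 kept their call in all 11 settings and 16 without each rat. The 7 calls of ET3x2 against S held in all 11 settings, and without single rats 6 to 8 of the 13 probe sets were called. In the other comparisons, the numbers of the 13 probe sets called that moved by over 1.5 times are given, and smaller moves are left out, among them the loss of Col4a1 1372439_at for ET3x1 against S with centred medians (-0.23, adjusted p = 0.0586). The shares of all tested probe sets called under these settings are not given in this section.

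With the Gapdh covariate 0 were called for ET3x2 against ET3x1 (2 with unadjusted p below 0.05) and 0 on high salt alone, 0 for ET3x2 against S on low salt, 0 for ET3x1 against S on high salt, 0 for salt over all strains, 0 for salt in ET3x1 and 0 for the salt response of ET3x1 against S. With the beta-actin covariate these were 0 for ET3x2 against ET3x1, 1 on high salt, 2 for salt over all strains, 0 for salt in ET3x1 and 2 for salt in S. With the spike-in covariate they were 0 for ET3x2 against S on low salt, 1 for ET3x1 against S on low salt, 2 on high salt, 1 for ET3x2 against ET3x1 on high salt, 0 for salt in S and 0 for the salt response of ET3x1 against S. Quantile normalization gave 0 for ET3x2 against ET3x1, 1 on high salt, 3 for salt over all strains, 2 in ET3x1 and 1 in S. Centred medians gave 2 for ET3x2 against ET3x1 and 1 on high salt, the brightest 25% of probe sets 0 and 1, and adjustment within each chip 0 on high salt. No filter gave 1 for ET3x2 against ET3x1 on high salt, 2 for salt in S and 1 for the salt response of ET3x1 against S. Array weights gave 2 for ET3x2 against ET3x1, 2 on low salt, 7 for ET3x1 against S on high salt, 5, 3 and 7 for salt in ET3x2, ET3x1 and S, and 4 and 1 for the salt responses of ET3x1 against S and of ET3x2 against ET3x1. Fitting only the strains compared gave 2 for ET3x2 against ET3x1, 3 and 0 for salt in ET3x1 and S, and 1 for the salt response of ET3x1 against S. With probe sets averaged by gene, 0 of 9 genes were called for ET3x2 against ET3x1, 1 on high salt and 0 for the salt response of ET3x1 against S. The causes of these shifts were not tested.

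Without single rats the counts ranged from 3 to 5 for ET3x1 against S, from 0 to 3 on low salt and from 1 to 5 on high salt. For ET3x2 against S they ranged from 1 to 6 on low salt and from 0 to 4 on high salt. For ET3x2 against ET3x1 they ranged from 0 to 2, and from 0 to 2 on high salt. For salt they ranged from 4 to 8 over all strains, from 1 to 2 in ET3x1 and from 0 to 5 in S, and for the salt response of ET3x1 against S from 0 to 2.

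No paired analysis was possible because the rats' numbers only name them. A fit of only the strains compared has no value for all strains, and a log2(value + 16) scale was not run because the deposited values were already log2. Tgfb1, the gene nearest the filter on dim signals, has the least signal over background.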
